A study of Homo sapiens with 8 samples.

Results

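The genes described here are 35 genes of cholesterol and fatty acid synthesis, and they were measured in DAOY cells, an established human medulloblastoma line. They were chosen by name, as the probes whose platform annotation carried the symbol of a listed gene. Of the 35 genes, 34 had a named probe and all 34 passed the detection filter, out of 12162 genes tested. FDFT1 was not analysed here. The 34 genes were read by 42 of the 22184 probes on the array, and 6 of them by more than 1 probe.

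The samples were 5 stable lines that carried pHM6-MXD3, 2 stable lines that carried pHM6 (vector only) and 1 sample of the parental cells, each on 1 Illumina bead array. The medium of all 7 stable lines held 800 µg/ml G418, and the labels' protocols name no selection for the parental cells. The labels do not name the promoter of pHM6 or say whether a numbered line is a clone. Each line was on 1 array, so differences between lines and between arrays cannot be told apart. MXD3 encodes a repressor that pairs with MAX, and the design asks how the MXD3 lines differ from both kinds of control.

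Cells make cholesterol from acetyl-CoA through mevalonate, isoprenoids, squalene and lanosterol. The transcription factors SREBP-1 and SREBP-2, made from SREBF1 and SREBF2, are held in the endoplasmic reticulum with SCAP by the INSIG proteins while sterol is plentiful. When sterol falls, SCAP carries them to the Golgi, where they are cut and freed to switch on the enzymes of the pathway. SREBP-2 acts mainly on cholesterol genes and SREBP-1c mainly on fatty acid genes. MXD proteins with MAX bind the E-box CACGTG, the same element that MYC with MAX binds. Sterol synthesis supplies cholesterol for Hedgehog signalling, a pathway active in one class of medulloblastoma.

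On the 8 arrays 60.5% to 64.0% of probes were detected, and mean intensity ran from 1346 to 1797. The MXD3 probe read 7.47, 7.22, 6.98, 8.08 and 6.18 log2 units in MXD3 lines 1 to 5, against 6.93 and 6.71 with vector only and 6.59 in parental cells. The difference was 0.44 ± 0.35 (SE, adjusted p = 0.647, limma), and whether the probe lies within the transgene was not tested. The array labelled MXD3 line 5 read below every control. Without it, limma's test called 0 of the 34 genes against either control set, and the sign of the difference from all controls turned for PMVK (0.09) and ABCA1 (-0.13). Of 12 neural precursor and Hedgehog markers 6 were detected on all arrays, among them SOX2, SOX9, GLI2 and OTX2, and 5 on none, namely NES, GLI1, ATOH1, ZIC1 and BARHL1. Of 5 adipocyte markers FABP4 was detected on all arrays, 2 on some, and ADIPOQ and PLIN1 on none. Of 6 hepatocyte markers SERPINA1 was detected on all arrays, 1 on some, and ALB, APOB, CYP7A1 and TTR on none. Among 5 neuronal markers with a probe TUBB3, MAP2 and ENO2 were detected on all arrays, and SYP and RBFOX3 on none. All 3 oligodendrocyte markers with a probe were detected on some arrays, as were 3 of 4 blood markers, with LYZ on none.

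Promoters of the genes were searched for the E-box and for the sterol element TCACNCCAC, on both strands, in RefSeq windows of 300 bases around the gene start (build GRCh38.p14). The windows of 31 of the 34 genes were at hand. An E-box stood in 5 of the 31 (16.1%), against 7.43% of all 27305 windows and 10.1% of the 10058 windows of genes tested. The sterol element stood in 1 of 31 (3.23%), against 1.15% of all windows. The GC box GGGCGG stood in 29 of 31 (93.5%), against 44.6% of all windows and 67.2% of those of genes tested, and CCAAT in 17 of 31 (54.8%), against 35.7% and 37.4%. Overlap of these last motifs with one another was not counted. No window of these genes held both an E-box and a sterol element, and a window without a match says only that these letters are not in it. The 6 windows with an E-box or a sterol element are shown because they hold the letters that the MXD and MYC proteins or the SREBPs are known to bind, with those letters in capitals, read 5′ to 3′ on the strand of the gene.

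SCAP, chr3:47475892-47476191, minus strand: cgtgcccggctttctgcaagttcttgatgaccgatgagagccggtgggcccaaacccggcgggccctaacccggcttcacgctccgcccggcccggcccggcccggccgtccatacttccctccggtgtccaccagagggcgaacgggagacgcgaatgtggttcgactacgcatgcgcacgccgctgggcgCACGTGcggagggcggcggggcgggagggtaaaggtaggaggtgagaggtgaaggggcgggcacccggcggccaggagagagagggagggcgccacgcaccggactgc
SC5D, chr11:121292521-121292820, plus strand: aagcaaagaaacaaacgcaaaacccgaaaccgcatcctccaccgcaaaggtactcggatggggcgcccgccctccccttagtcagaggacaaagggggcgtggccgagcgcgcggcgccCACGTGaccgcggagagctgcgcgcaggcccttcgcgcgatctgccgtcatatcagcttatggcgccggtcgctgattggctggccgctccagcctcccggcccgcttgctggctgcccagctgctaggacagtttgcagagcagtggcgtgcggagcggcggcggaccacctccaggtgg
INSIG1, chr7:155297628-155297927, plus strand: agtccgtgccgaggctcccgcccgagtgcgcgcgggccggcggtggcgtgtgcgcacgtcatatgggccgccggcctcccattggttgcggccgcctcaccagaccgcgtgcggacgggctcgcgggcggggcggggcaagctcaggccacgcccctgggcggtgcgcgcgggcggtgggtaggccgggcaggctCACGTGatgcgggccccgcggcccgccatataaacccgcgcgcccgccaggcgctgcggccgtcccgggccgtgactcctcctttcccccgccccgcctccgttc
LSS, chr21:46228725-46229024, minus strand: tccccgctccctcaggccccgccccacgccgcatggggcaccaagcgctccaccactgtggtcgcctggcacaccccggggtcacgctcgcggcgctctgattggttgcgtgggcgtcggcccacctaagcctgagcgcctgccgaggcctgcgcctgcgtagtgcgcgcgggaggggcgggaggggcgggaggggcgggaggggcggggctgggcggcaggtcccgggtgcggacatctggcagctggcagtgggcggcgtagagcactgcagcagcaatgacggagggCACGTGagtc
SREBF2, chr22:41832855-41833154, plus strand: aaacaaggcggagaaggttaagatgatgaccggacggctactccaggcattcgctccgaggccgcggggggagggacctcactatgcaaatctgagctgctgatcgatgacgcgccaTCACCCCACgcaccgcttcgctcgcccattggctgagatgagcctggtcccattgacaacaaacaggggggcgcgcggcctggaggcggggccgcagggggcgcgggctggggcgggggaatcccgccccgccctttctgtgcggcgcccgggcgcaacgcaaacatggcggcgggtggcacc
ABCA1, chr9:104928106-104928405, minus strand: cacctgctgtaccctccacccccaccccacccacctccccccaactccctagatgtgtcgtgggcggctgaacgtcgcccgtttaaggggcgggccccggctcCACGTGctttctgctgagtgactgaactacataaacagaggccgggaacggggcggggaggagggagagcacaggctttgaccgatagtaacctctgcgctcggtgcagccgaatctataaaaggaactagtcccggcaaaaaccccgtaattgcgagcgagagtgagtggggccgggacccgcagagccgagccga

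The E-box began 58 bases before the gene start in SCAP, 55 in INSIG1, 131 in SC5D and 147 in ABCA1, and lay inside the transcribed part in LSS. The sterol element of SREBF2 began 133 bases before the start. A match is a description of the letters and not a measured binding site.

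No gene of the group passed the test when the MXD3 lines were set against the 3 control arrays. Intensities were background-corrected and quantile-normalized on the log2 scale (neqc), and limma's test with Benjamini-Hochberg adjustment over all 12162 genes called 0 of 34, against 0% of all genes, with a smallest adjusted p of 0.316. At an unadjusted p under 0.05 there were 3 of 34 (8.82%), SCAP, ACAT2 and MVD, against 11.7% of all genes. The MXD3 arrays did not overlap the 3 controls for 3 of 34, SCAP, HSD17B7 and ACAT2, against 7.98% of all genes. Both shares are near the background. Means were higher in the MXD3 lines for 16 genes and lower for 18, against 50.5% higher over all genes, and the median log2 difference was -0.02 for the 34 genes and 0.00 for all genes tested. In cultures measured in bulk, fewer cells with a transcript and less of it per cell cannot be told apart.

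The intervals bound what these arrays could have missed. The 95% interval of the difference lay within 1 log2 unit of 0, a change of 2-fold either way, for 30 of the 34 genes, against 87.4% of all genes. The exceptions were MVD, SREBF1, STARD4 and ABCA1. The median half-width of the interval was 0.42 log2 units, a 1.33-fold change. With 5 lines against 3, a smaller difference than that had an interval that reached 0 in a gene of median error. Against the vector lines alone the median half-width was wider, 0.48 log2 units, a 1.39-fold change. The intervals that passed 1 log2 unit there were those of ACAT2, MVD, SREBF1 and ABCA1.

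**Figure D1:**
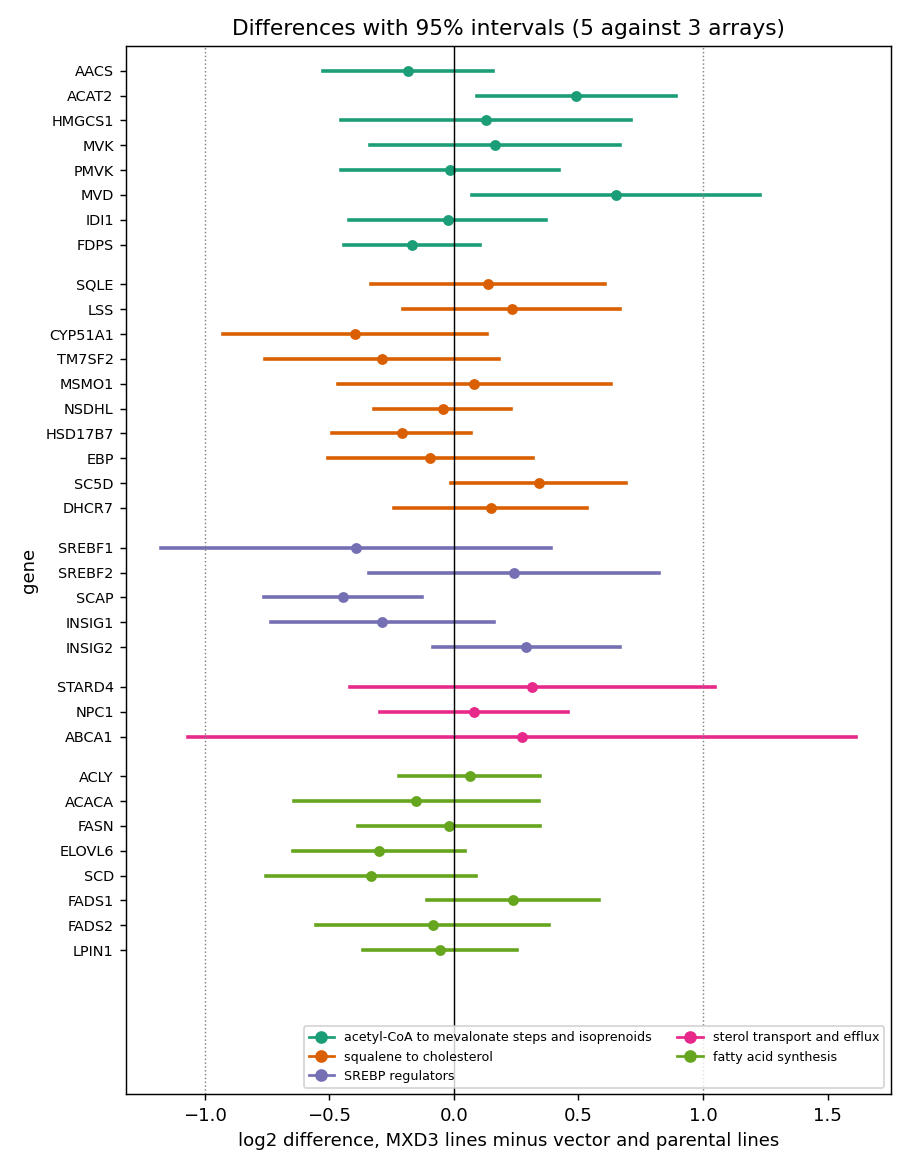
Log2 difference of each gene of the MXD3 lines relative to the 3 control arrays (points) with its 95% interval from limma (bars), 5 against 3 arrays, coloured by role. Dotted lines mark a 2-fold change. SCAP, at -0.44, and ACAT2, at 0.49, lie farthest from 0 relative to their error, and ABCA1 has the widest interval.

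Among the regulators, SCAP, which escorts the SREBPs to the Golgi, had the smallest p of the 34 genes. Its log2 readings were 11.90, 11.58, 11.51, 11.78 and 11.53 in MXD3 lines 1 to 5, against 12.05 and 12.28 with vector only and 11.98 in parental cells. All 5 MXD3 lines lay below all 3 controls, with MXD3 line 1 and the parental cells closest to each other. The MXD3 lines averaged 11.66 ± 0.17 (SD, n = 5) and the 3 controls 12.10 ± 0.15 (SD, n = 3). The difference was -0.44 ± 0.14 (SE, 95% interval -0.76 to -0.13), so SCAP was 1.36-fold lower in the MXD3 lines, and the adjusted p over all genes was 0.316 in limma's test. Against the vector lines alone it was -0.50 ± 0.16 (adjusted p = 0.587, limma). Leaving out single arrays gave -0.50 to -0.36, and without the array labelled MXD3 line 5 it was -0.41.

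SREBF1, the gene of SREBP-1, was high on 3 arrays and lower on 5, and these did not follow the groups. It read 9.14, 8.05, 7.99, 8.31 and 8.05 in MXD3 lines 1 to 5, against 9.09 and 9.15 with vector only and 7.85 in parental cells. MXD3 line 1 read like the vector lines, and the other 4 MXD3 lines lay nearer to the parental cells. It was the 1 gene of 34 with 1 MXD3 line set far from the other 4 by Dixon's criterion, against 5.72% of all genes. Against the vector lines the difference was -0.81 ± 0.30 (SE, adjusted p = 0.596, limma). Against all 3 controls it was -0.39 ± 0.35 (SE, adjusted p = 0.685), with the parental cells lowest of the 8 arrays. The value against all controls was -0.20 without vector line 1, -0.17 without vector line 2 and -0.81 without the parental array. The vector lines were 1.27 ± 0.44 (SE) above the parental array (adjusted p = 0.592, limma). A further SREBF1 probe was detected on no array.

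SREBF2, the gene of SREBP-2, was set apart on the parental array. It read 10.24, 10.64, 10.22, 10.25 and 10.50 in MXD3 lines 1 to 5, against 10.33 and 10.66 with vector only and 9.39 in parental cells. All 7 stable lines lay above the parental cells, while the MXD3 and the vector lines overlapped. The difference from the parental cells was 0.98 ± 0.23 (SE) in the MXD3 lines and 1.10 ± 0.26 (SE) in the vector lines, 1.97-fold and 2.15-fold, with adjusted p of 0.181 and 0.428 in limma's test. Both rest on a single parental array, whose spread was taken from the other groups. Against the vector lines the MXD3 lines differed by -0.13 ± 0.18 (SE).

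The INSIG genes, whose proteins retain SCAP in the endoplasmic reticulum, had differences of opposite sign. INSIG1 read 10.73, 10.84, 10.05, 10.32 and 10.41 in MXD3 lines 1 to 5, against 10.66 and 11.03 with vector only and 10.59 in parental cells, a log2 difference of -0.29 ± 0.20 (SE) from all controls. A further INSIG1 probe gave -0.28. INSIG2 read 9.62, 10.10, 9.88, 9.72 and 10.09, against 9.33 and 9.63 with vector only and 9.81 in parental cells, a difference of 0.29 ± 0.17 (SE). The groups overlapped for both genes, and neither passed (adjusted p = 0.593 and 0.513, limma). INSIG1 was at -0.15 without vector line 2, and INSIG2 at 0.16 without vector line 1.

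**Figure D2:**
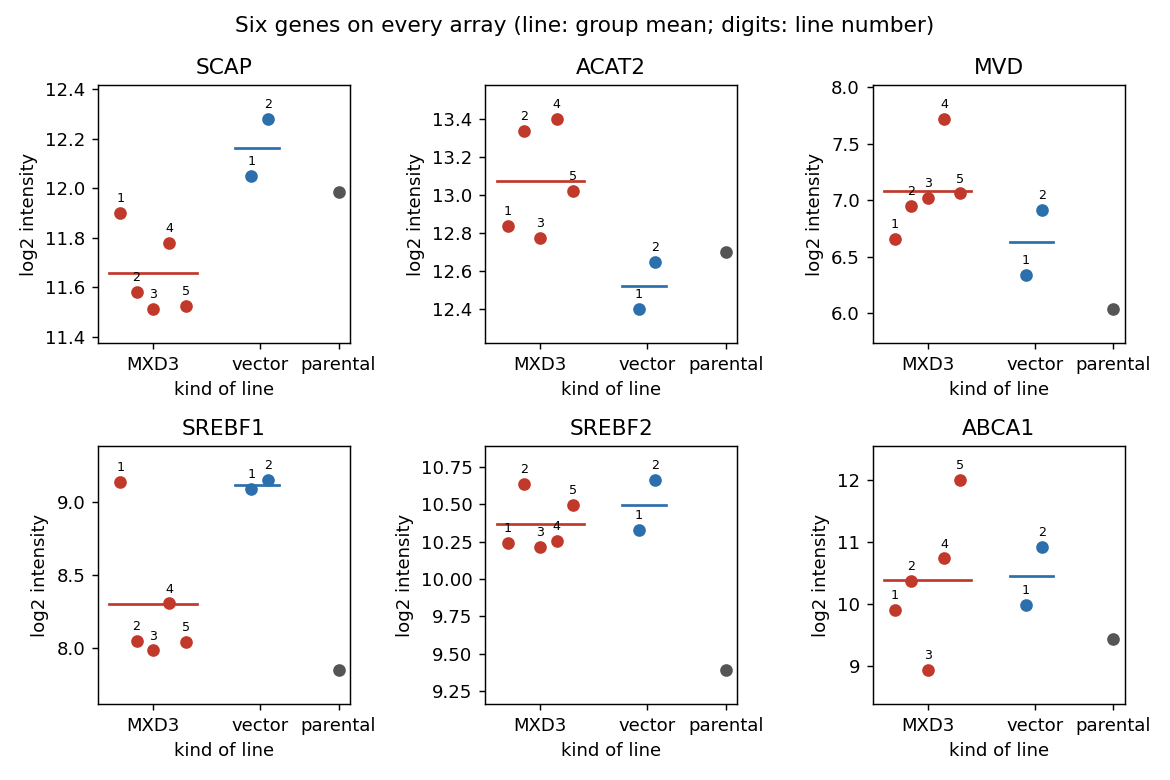
Log2 intensity of 6 genes on each array, with MXD3 lines left, vector lines in the middle and the parental cells right. Points are arrays, digits are line numbers and horizontal lines are group means. The MXD3 lines lie below the controls for SCAP and above them for ACAT2, MXD3 line 1 sits with the vector lines for SREBF1, and the parental array is lowest for SREBF2.

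Of the 8 genes from acetyl-CoA to the isoprenoids, the MXD3 mean was above that of all controls for 4 and below it for 4, with a median log2 difference of 0.06. ACAT2, the cytosolic thiolase that joins acetyl-CoA units at the head of the pathway, read 12.84, 13.33, 12.77, 13.40 and 13.02 in MXD3 lines 1 to 5, against 12.40 and 12.65 with vector only and 12.70 in parental cells. All 5 MXD3 lines lay above all 3 controls, with a gap of less than 0.1 between MXD3 line 3 and the parental cells. The MXD3 lines averaged 13.07 ± 0.28 (SD, n = 5) and the 3 controls 12.58 ± 0.16 (SD, n = 3), a difference of 0.49 ± 0.18 (SE), or 1.41-fold (adjusted p = 0.354, limma). Against the vector lines alone it was 0.55 ± 0.21 (adjusted p = 0.608, limma).

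MVD, mevalonate diphosphate decarboxylase, had a difference that depended on the normalization. It read 6.66, 6.95, 7.02, 7.72 and 7.06 in MXD3 lines 1 to 5, against 6.34 and 6.91 with vector only and 6.04 in parental cells. MXD3 line 1 lay below vector line 2, so the groups overlapped. The difference was 0.65 ± 0.26 (SE, adjusted p = 0.369, limma) from all controls and 0.45 ± 0.28 (SE, adjusted p = 0.720) from the vector lines alone. With quantile normalization of unsubtracted intensities the value from all controls was 0.27, below the 0.48 of ACAT2. Over all alternatives that kept every array it ran from 0.27 to 0.80 for MVD. The value against the vector lines rested on both of them, at 0.17 without vector line 1 and 0.74 without vector line 2.

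HMGCS1, the synthase that makes HMG-CoA, showed lines apart and groups together. It read 10.83, 11.41, 10.29, 10.63 and 10.95 in MXD3 lines 1 to 5, against 10.41 and 11.16 with vector only and 10.50 in parental cells. The difference from all controls was 0.13 ± 0.26 (SE), smaller than the SD of 0.41 among the MXD3 lines. The kinases MVK (0.16 ± 0.22 SE) and PMVK (-0.02 ± 0.20), the isomerase IDI1 (-0.03 ± 0.18), farnesyl diphosphate synthase FDPS (-0.17 ± 0.12) and acetoacetyl-CoA synthetase AACS (-0.18 ± 0.15) had differences near or under their errors, with adjusted p of 0.611 or more in limma's test.

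From squalene to cholesterol, 5 of 10 genes had higher and 5 lower means than in all controls, with a median of 0.02. SC5D, the sterol C5-desaturase, read 10.86, 11.17, 11.03, 11.005 and 11.35 in MXD3 lines 1 to 5, against 10.61 and 10.62 with vector only and 11.01 in parental cells. The MXD3 lines all lay above the vector lines and on both sides of the parental cells. The difference was 0.47 ± 0.16 (SE, adjusted p = 0.588, limma) from the vector lines and 0.34 ± 0.16 (adjusted p = 0.440) from all controls. A further detected SC5D probe gave 0.12 and -0.0010 for the same comparisons, so the size and, against all controls, the sign depended on the probe, and the mean of the detected probes gave 0.30 and 0.17.

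HSD17B7, which encodes a 3-ketosteroid reductase of the pathway, had MXD3 arrays below all controls by a narrow margin. It read 11.24, 11.17, 10.86, 11.08 and 11.16 in MXD3 lines 1 to 5, against 11.30 and 11.34 with vector only and 11.29 in parental cells, a difference of -0.21 ± 0.12 (SE, adjusted p = 0.529, limma). Whether its probe also reads a pseudogene copy was not tested.

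The other 8 steps had differences from all controls between -0.40 and 0.23. CYP51A1, lanosterol demethylase, was at -0.40 ± 0.24 (SE), or -0.68 without vector line 1 and -0.26 without vector line 2, and the sterol C14-reductase TM7SF2 at -0.29 ± 0.21. LSS, lanosterol synthase, was at 0.23 ± 0.19, DHCR7, a late reductase, at 0.15 ± 0.17 and squalene epoxidase SQLE at 0.14 ± 0.21. The 2 further LSS probes gave 0.27 and 0.16. NSDHL (-0.05 ± 0.12) and EBP (-0.09 ± 0.18), a dehydrogenase and an isomerase of sterol intermediates, lay within their error of 0. The methylsterol oxidase gene MSMO1 was at 0.08 ± 0.24 by 1 probe and at -0.19 by the other, so its sign depended on the probe. None of these 8 passed (adjusted p = 0.532 or more, limma).

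Of the 8 genes of fatty acid synthesis and its branches, the MXD3 mean was above that of all controls for 2 and below it for 6, with a median of -0.07. FASN, fatty acid synthase, read 13.09, 13.25, 13.12, 13.32 and 13.15 in MXD3 lines 1 to 5, against 13.08 and 13.60 with vector only and 12.93 in parental cells. It had the smallest SD of the 34 genes among the MXD3 lines, 0.10, and its interval of -0.38 to 0.35 holds no change beyond 2-fold. ACLY, which makes cytosolic acetyl-CoA from citrate, was at 0.06 ± 0.13 (SE) and ACACA, acetyl-CoA carboxylase, at -0.15 ± 0.22, with -0.10 by its other probe. The stearoyl-CoA desaturase SCD (-0.33 ± 0.19) and the elongase ELOVL6 (-0.30 ± 0.15) had the most negative differences of these 8 (adjusted p = 0.505 and 0.472, limma), and without vector line 2 SCD was at -0.14. The desaturases FADS1 (0.24 ± 0.15) and FADS2 (-0.09 ± 0.21) differed in sign, with FADS2 within its error of 0. Against the vector lines alone both were above 0, FADS1 at 0.26 and FADS2 at 0.09. LPIN1, a phosphatidate phosphatase, was at -0.06 ± 0.14 from all controls.

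ABCA1, the exporter of cellular cholesterol, differed more between lines than any other gene of the group. It read 9.91, 10.38, 8.94, 10.74 and 12.01 in MXD3 lines 1 to 5, against 9.99 and 10.93 with vector only and 9.44 in parental cells. The highest MXD3 line was 8.42-fold above the lowest, and the SD among the MXD3 lines was 1.13. The difference from all controls was 0.27 ± 0.60 (SE, 95% interval -1.07 to 1.61), and without the array labelled MXD3 line 5 its sign turned, to -0.13. STARD4, a cytosolic sterol carrier, was detected in MXD3 lines 1, 2 and 5 and in vector line 2, and not in MXD3 lines 3 and 4, vector line 1 or the parental cells. It read 5.76, 6.35, 5.09, 5.36 and 6.11 in MXD3 lines 1 to 5, against 5.30 and 6.04 with vector only and 4.92 in parental cells. NPC1, which moves cholesterol out of lysosomes, was at 0.08 ± 0.17 (SE) from all controls. STARD4 and ABCA1 were the 2 of 34 genes with an SD over 0.5 among the MXD3 lines (5.88%, against 8.92% of all genes), and SREBF1 came next with 0.48.

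Lines of the same kind also differed from each other across these genes. This pattern, and the lines named in it, were chosen after the values were seen, and it is given as a description with no test. MXD3 line 3 was the lowest of the 5 MXD3 lines for 20 of the 34 genes (58.8%), against 16.7% of all genes. They included HMGCS1, MVK, IDI1, MSMO1, DHCR7, SREBF2, INSIG1, STARD4, ABCA1 and SCD. On a further detected probe MSMO1 was lowest in MXD3 line 1 and INSIG1 in MXD3 line 4. MXD3 lines 1, 2, 4 and 5 were lowest for 7, 1, 2 and 4 of the 34, against 19.6%, 20.5%, 18.1% and 25.1% of all genes. The median deviation of the 34 genes from their mean over all arrays was -0.23 in MXD3 line 3, against -0.06, 0.10, -0.01 and 0.15 in MXD3 lines 1, 2, 4 and 5. The median over all genes lay between -0.01 and 0.01 on every array.

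**Figure D3:**
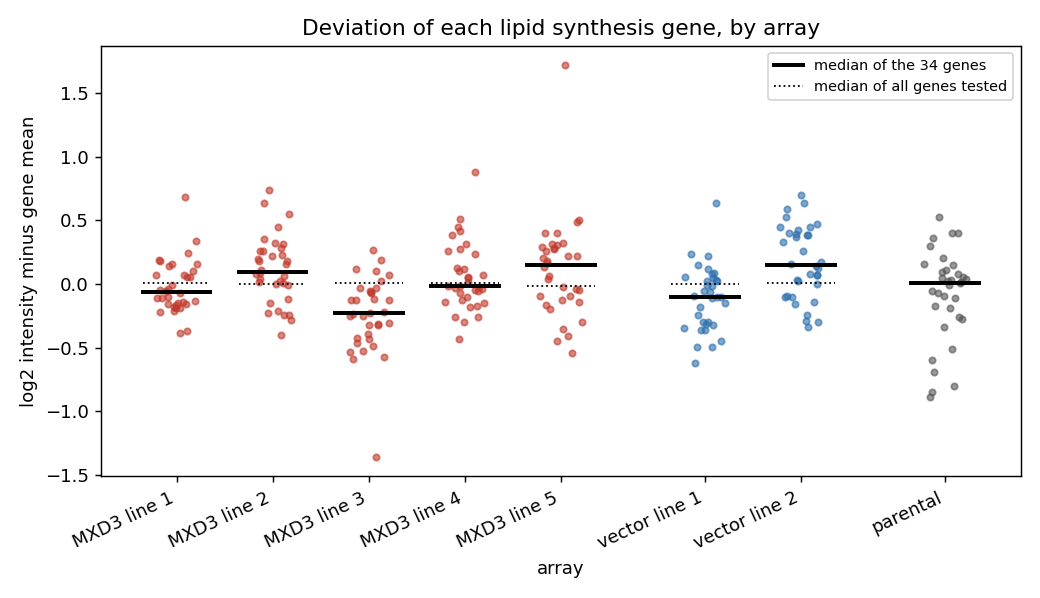
Deviation of each of the 34 genes from its mean over the 8 arrays (points, log2 units), by array, with the median of the 34 genes (thick line) and of all genes tested (dotted line). The median of the 34 genes is lowest in MXD3 line 3 (-0.23) and highest in vector line 2 (0.15) and MXD3 line 5 (0.15), so both kinds of stable line span high and low values.

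The 2 vector lines stood apart from each other as well. Vector line 2 read above vector line 1 for 28 of the 34 genes (82.4%), against 51.8% of all genes, and by over 0.3 log2 units for 17 of them, against 20% of all genes. It was below by over 0.3 for TM7SF2 and FADS2 (20.1% of all genes). The median gap was 0.29 for the 34 genes and 0.02 for all genes. The gap was 0.99 for MVK, 0.84 for CYP51A1, 0.75 for HMGCS1, 0.74 for STARD4 and 0.93 for ABCA1. STARD4 was not detected in vector line 1. Across the roles the gap was above 0 for 7 of 8 genes up to the isoprenoids and 9 of 10 from squalene to cholesterol. It was above 0 for 5 of 5 regulators, 3 of 3 transport genes and 4 of 8 fatty acid genes. On a further detected probe the order of the vector lines reversed for INSIG1, ACACA, SC5D and LSS. It held for MSMO1 and for another LSS probe. Of the 32 other lipid genes 13 were higher in vector line 2.

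MXD3 lines 2 and 3 were set side by side too, a pair chosen after the values were seen. Line 3 was named for its low readings in these genes. For the 20 genes lowest in line 3, line 2 lay above it by that choice. MXD3 line 2 read above MXD3 line 3 for 30 of the 34 (88.2%), against 48.9% of all genes, with a median gap of 0.28 for the 34 genes and -0.01 for all genes. The largest gaps between MXD3 lines 2 and 3 were 1.44 for ABCA1, 1.26 for STARD4, 1.14 for MSMO1, 1.12 for HMGCS1 and 0.79 for INSIG1. STARD4 was not detected in MXD3 line 3. The 4 genes higher in MXD3 line 3 were NPC1, ELOVL6, MVD and EBP. By a further detected probe ACACA, SC5D and LSS were higher in MXD3 line 3 as well. The order held for INSIG1, MSMO1 and another LSS probe. The MXD3 probe read 7.22 in line 2 and 6.98 in line 3.

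**Figure D4:**
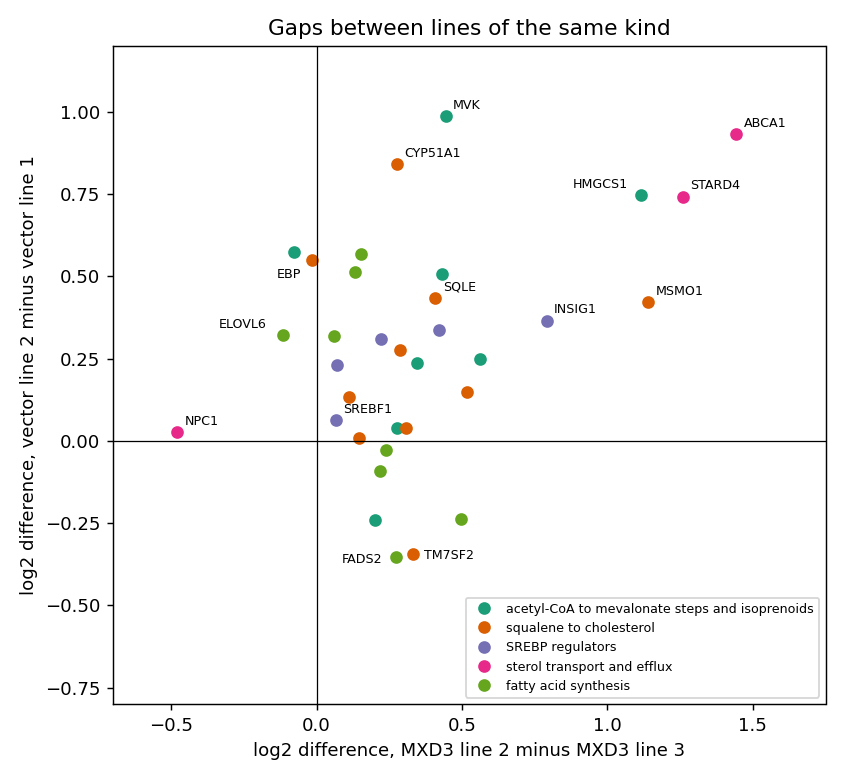
Log2 gap between MXD3 lines 2 and 3 (x) against the gap between vector lines 2 and 1 (y) for each of the 34 genes, coloured by role. The 4 arrays are separate samples, and the lines were chosen after the values were seen, MXD3 line 3 for its low readings. Of the 34 points 30 lie right of 0 and 28 above 0, with ABCA1, STARD4, HMGCS1 and MSMO1 farthest out. STARD4 was not detected in MXD3 line 3 or vector line 1.

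The comparison with the vector lines depended on which vector line was used. With both vector lines the median log2 difference of the 34 genes was -0.01, with 17 higher and 17 lower means (50.6% higher over all genes). Set against vector line 2 alone (without vector line 1) it was -0.18 with 10 of 34 higher, and against vector line 1 alone (without vector line 2) it was 0.09 with 22 of 34 higher. The test against the vector lines called 0 of 34, against 0% of all genes (smallest adjusted p = 0.587, limma). At an unadjusted p under 0.05 there were 4 of 34 (11.8%), ACAT2, SC5D, SREBF1 and SCAP, against 7.75% of all genes. The MXD3 arrays did not overlap the vector arrays for 4 of 34, ACAT2, SC5D, HSD17B7 and SCAP, against 13.2% of all genes.

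**Figure D5:**
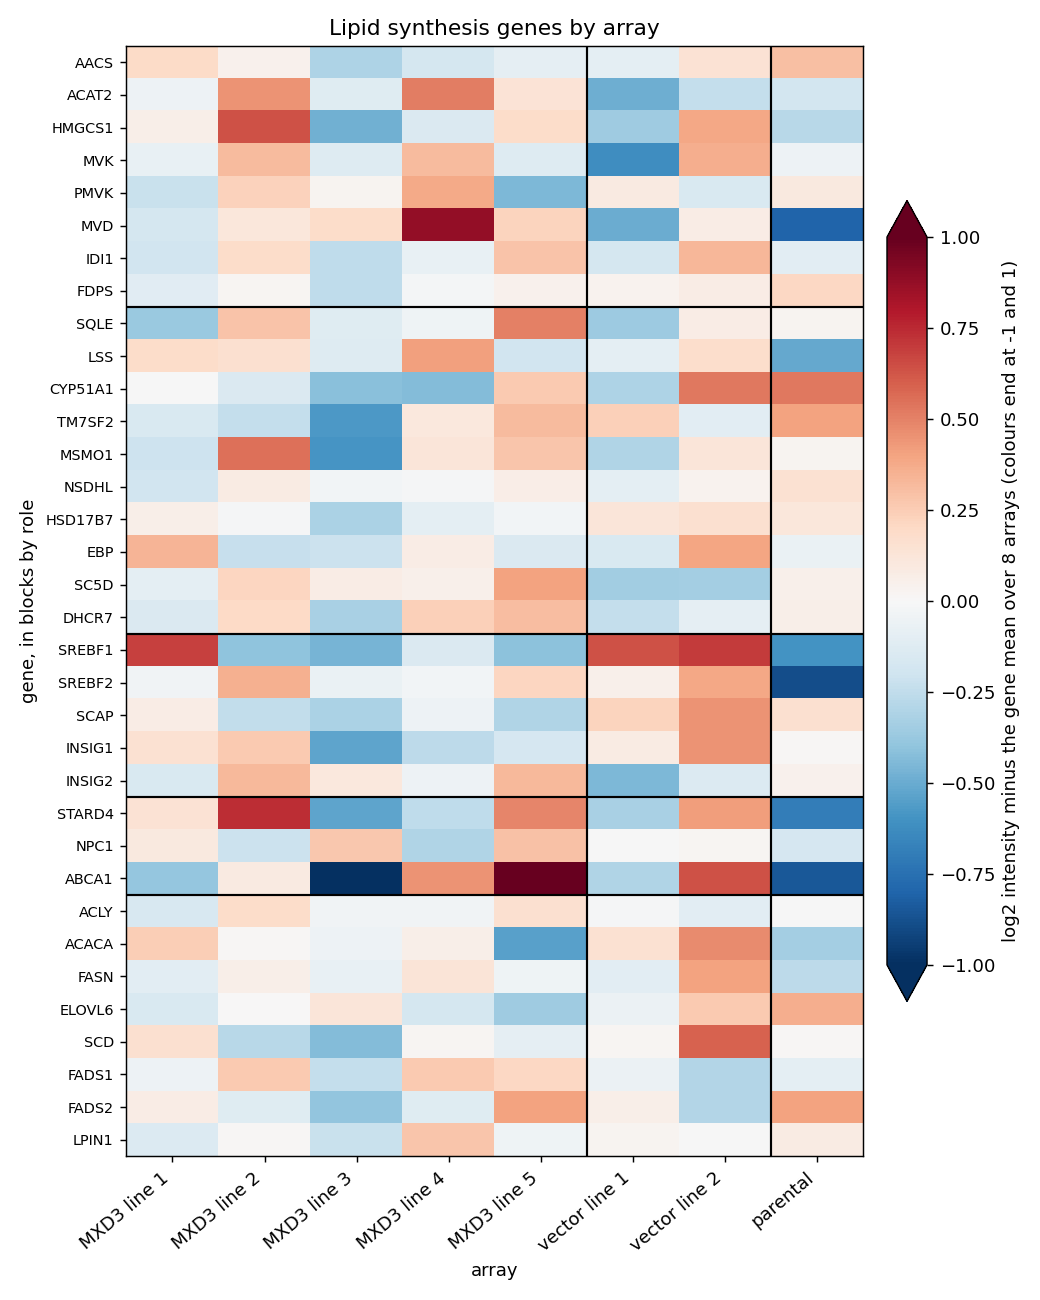
Log2 intensity of each of the 34 genes minus its mean over the 8 arrays, in blocks by role from acetyl-CoA and mevalonate at the top to fatty acid synthesis at the bottom, with MXD3 lines left, vector lines next and the parental cells right. MXD3 line 3 is the lowest MXD3 line in 20 rows, vector line 2 is above vector line 1 in 28, and the MXD3 columns do not overlap the controls in 3.

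Against the parental array no gene of the group passed, in the MXD3 lines (0 of 34, against 0.00822% of all genes, smallest adjusted p = 0.181) or in the vector lines (0 of 34, against 0.00822%, smallest adjusted p = 0.428, limma). At an unadjusted p under 0.05 the MXD3 lines had 3 of 34, MVD, LSS and SREBF2, all higher (7.42% of all genes were higher by this rule), and the vector lines had SREBF1 and SREBF2, both higher (4.42% of all genes). These comparisons share the parental array. The 7 stable lines all lay above the parental cells for 6 of 34 genes, MVD, LSS, SREBF1, SREBF2, STARD4 and FASN, against 17.3% of all genes. They all lay below them for 5 of 34, AACS, FDPS, TM7SF2, NSDHL and ELOVL6, against 16.7%. STARD4 was not detected in the parental cells, vector line 1 or MXD3 lines 3 and 4. LSS read 9.82, 9.79, 9.50, 10.04 and 9.44 in MXD3 lines 1 to 5 and 9.53 and 9.81 in the vector lines, against 9.12 in the parental cells. The order of LSS depended on the probe, since on each of its 2 further probes at least 1 stable line lay below the parental cells.

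Other genes around lipid synthesis, from a list of 41 of which 32 were tested, were spread around 0 as well. Against all controls 16 had higher and 16 lower means, with a median of 0.00, and limma's test called 0. At an unadjusted p under 0.05 there were 2 of 32 (6.25%), ACSS2 and SOAT1, against 11.7% of all genes. ACSS2, which makes acetyl-CoA from acetate, read 9.74, 9.39, 9.72, 9.88 and 9.46 in MXD3 lines 1 to 5, against 9.35 and 9.16 with vector only and 9.03 in parental cells, a difference of 0.46 ± 0.15 (SE, adjusted p = 0.316). SOAT1, which esterifies cholesterol for storage, was at -0.37 ± 0.16 (SE). The SREBP protease gene MBTPS1 was at 0.38 ± 0.17, DHDDS, which serves dolichol synthesis, at 0.30 ± 0.16, the citrate carrier SLC25A1 at 0.32 ± 0.15 and the elongase ELOVL1 at 0.27 ± 0.14 (adjusted p = 0.421 or more, limma).

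The 5 genes with an E-box in the promoter window had differences of both signs from all controls. SCAP (-0.44) and INSIG1 (-0.29) were lower in mean, and SC5D (0.34), ABCA1 (0.27) and LSS (0.23) higher. Without the parental array LSS was at 0.05, and ABCA1 turned to -0.07. By a further detected probe SC5D was at -0.0010 from all controls. SREBF2, the gene with the sterol element in its window, was at 0.24 and turned to -0.13 without the parental array.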

How the data were processed

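RNA from 8 cultures was measured on Illumina bead arrays. The submitters' processing notes name BeadStudio without a version. No genome build is stated there. The deposited intensity table is linear with no background subtracted, and each deposited detection p-value stands beside its intensity. The deposited series matrix holds background-subtracted intensity scaled to 1 mean per array. Each of its columns was a straight line of the intensity table to within 0.0121, and it served as an alternative. Intensities were corrected with neqc (limma 3.58.1, R 4.3.3, offset 16). Probes with a detection p-value under 0.05 on 2 or more arrays were used. Of 22184 probes, 19715 named 1 gene, 0 several and 2469 none. The probe with the highest mean stood for its gene, which left 12162 genes. Differences are log2 values from lmFit and eBayes, with 2-sided p-values adjusted by Benjamini-Hochberg over the 12162 genes and a threshold of 0.05. The comparison with all controls used 2 groups, the others 3 groups. The number of arrays limits the precision, and p-values reflect only the spread among these cultures, which may be technical.

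The genes, the lists and the tests were chosen with earlier results of these data known. Values on every array are given for genes with an unadjusted p under 0.05 against either control set, genes whose groups did not overlap, the SREBP regulators, and the 3 genes with the largest SD among the MXD3 lines. Of the other lipid genes, up to 6 with the smallest p are named. HMGCS1, FASN, LSS and the genes of the line comparisons were added after their values were seen. Alternatives were another normalization, the series matrix, other filters, offsets and probe rules, leaving out each array, and a replicate block. The method was tested on simulated data, with planted changes larger than any group difference of these genes. That test does not show what the method would call at the sizes seen here.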

Additional observations from a re-analysis of the deposited data

Results flagged for a closer look

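SREBF1 in MXD3 line 1 stood apart from the other MXD3 lines. It read 9.14 there, against 7.99 to 8.31 in the other 4, and the gap was 0.721 of the range of the 5 lines, above the critical value of 0.71. SREBF1 was the 1 gene of 34 beyond that value (2.94%, against 5.72% of all genes). By chance about 1 gene in 20 would lie beyond that value. The 2 vector lines read 9.09 and 9.15. Without MXD3 line 1 the log2 difference of SREBF1 was -1.02 against the vector lines (adjusted p = 0.254, limma) and -0.60 against all 3 controls (adjusted p = 0.404), compared with -0.81 and -0.39 with it. Only 1 SREBF1 probe was detected, so no further probe bears on the reading.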

How the results depend on the processing

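The count of genes called was 0 of 34 in all 4 comparisons under every alternative run, with a smallest adjusted p of 0.197 against all controls and 0.254 against the vector lines. The median difference of the 34 genes stayed within the spread between replicates of 0.154 log2 units in all alternatives but one. Without vector line 1 it was -0.175 against the vector lines, a comparison with the lone remaining vector line, assumed to vary like the others. Leaving out each array in turn gave -0.070 to 0.096 against all controls, -0.175 to 0.092 against the vector lines, 0.000 to 0.101 for the MXD3 lines against the parental cells and -0.062 to 0.074 for the vector lines against them. Of the 34 genes, 21 kept the sign of their difference from all controls in all 14 alternatives and 16 of theirs from the vector lines in all 15. The line numbers are not known to pair samples. MXD3 and vector lines of the same number deviated in opposite directions across genes (r = -0.309 and -0.179). The 2 vector lines deviate from their own mean as mirror images, so lines 1 and 2 of unlike number gave 0.309 and 0.179 by construction. These values therefore cannot decide whether the numbers pair samples. The line number was also used as a replicate block, on the 7 numbered arrays. MXD3 lines 3, 4 and 5 have no vector line of the same number. The fit therefore compared only lines 1 and 2 of each kind. It called 0 of 34, and the median was -0.039. No gene of the group had an unadjusted p under 0.05 in limma's test, against 4 without the block. Over all 12162 genes there were 291 with the block and 942 without it. By line, MXD3 line 3 was lowest for 19 to 21 of the 34 genes and vector line 2 above vector line 1 for 26 to 28 under alternatives chosen after seeing the data.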
